A study of Mus musculus with 15 samples.

Results

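Levels of 10 genes of serotonin signalling were compared in the hippocampus of mice lacking corticosteroid receptors: the receptor genes Htr1a, Htr1b, Htr2a, Htr2c, Htr3a, Htr4, Htr5a and Htr7, the synthesis enzyme gene Tph2 and the reuptake transporter gene Slc6a4. The members were the array probes whose accession resolved to these symbols, which gave 11 probes for 9 of the 10 genes, out of 19096 named genes on the array. Htr3a was not analysed here. Of the 9, the 7 genes Htr1a, Htr2a, Htr2c, Htr4, Htr5a, Htr7 and Tph2 passed the filter on dim probes and were tested, while Htr1b and Slc6a4 were not well above background on any of the 15 arrays. Whole hippocampi of both sides from male C57BL/6 mice of about 2.5 months were hybridised to single-colour (Cy3) Agilent mouse arrays. The 4 dflox controls carried floxed alleles of both Nr3c1, the gene of the glucocorticoid receptor (GR), and Nr3c2, the gene of the mineralocorticoid receptor (MR). The 4 GREmx1-cre mice came from a cross of floxed GR mice with Emx1-Cre mice and lack GR in the hippocampus. The 4 MREmx1-cre mice came from the same kind of cross with floxed MR mice and lack MR, and the 3 GRMREmx1-cre mice lack both receptors. The groups analysed did not include mice with Cre and no floxed allele. Emx1 drives Cre in the lineage of the dorsal telencephalon, which gives rise to the excitatory neurons and many glia of hippocampus and cortex. Most GABAergic interneurons, microglia and the serotonin axons that reach the hippocampus come from other lineages. In RNA of a whole tissue, fewer cells of a type and less RNA per cell cannot be told apart.

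Serotonin is made in neurons of the brainstem raphe nuclei, where Tph2 hydroxylates tryptophan, Ddc decarboxylates the product and Slc18a2 loads the transmitter into vesicles. Axons of these neurons release serotonin in the hippocampus, Slc6a4 on the axons takes it up again, and Maoa breaks it down. The receptors differ in coupling: Htr1a, Htr1b and Htr5a act through inhibitory Gi/o proteins, Htr2a and Htr2c through Gq, and Htr4 and Htr7 through Gs, while Htr3a forms an ion channel. Htr1a is abundant on pyramidal and granule neurons of the hippocampus, and corticosteroids are known to hold its transcript down there. GR and MR bind as pairs to a palindromic DNA element, and GR also represses some genes through inverted repeats.

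Sequence before the start site was read from RefSeq (GRCm38.p6) for the 8 of 10 members that matched its promoter table, as 250 bases on the strand of the gene. The 3 sequences shown are Tph2, the member with the clearest rise below, Htr1a, known as a corticosteroid-repressed gene, and Htr2a, the only matched member that held one of the motifs searched. Each is written 5′ to 3′ and ends at the base before the start site, and capitals mark the recognition hexamer of the corticosteroid response element. Tph2 is at chr10:115185023-115185272 (minus strand), Htr1a at chr13:105443443-105443692 (plus strand) and Htr2a at chr14:74640624-74640873 (plus strand).
Tph2: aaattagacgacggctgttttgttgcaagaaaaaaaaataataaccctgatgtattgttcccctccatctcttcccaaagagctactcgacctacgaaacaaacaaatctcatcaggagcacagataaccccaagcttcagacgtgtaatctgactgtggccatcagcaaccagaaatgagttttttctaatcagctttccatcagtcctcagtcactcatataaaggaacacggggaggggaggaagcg
Htr1a: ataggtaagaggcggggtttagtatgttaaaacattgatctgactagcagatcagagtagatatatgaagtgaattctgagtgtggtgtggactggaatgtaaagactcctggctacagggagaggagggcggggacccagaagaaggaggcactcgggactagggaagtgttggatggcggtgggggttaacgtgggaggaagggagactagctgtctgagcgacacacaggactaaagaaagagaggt
Htr2a: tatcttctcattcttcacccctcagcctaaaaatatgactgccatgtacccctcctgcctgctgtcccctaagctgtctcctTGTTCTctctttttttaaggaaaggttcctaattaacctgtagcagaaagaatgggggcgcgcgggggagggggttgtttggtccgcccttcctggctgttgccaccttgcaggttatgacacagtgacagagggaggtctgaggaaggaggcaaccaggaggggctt
The hexamer AGAACA, read as TGTTCT on the other strand, was in 16.1% of 32851 promoters of this length, and in Htr2a it lay 168 to 163 bases before the start. The full palindrome, AGAACA and then TGTTCT with any 3 bases between, which holds the hexamer on both strands, was in 3 of the 32851 promoters (0.00913%) and in none of the 8 members. The inverted repeats, CTCC and then GGAGA with 0, 1 or 2 bases between, were in 0.231%, 0.588% and 0.566% of promoters on either strand, and in none of the 8. A match is a description of the letters in this window, and the arrays carry no measure of binding.

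Levels are log2 intensities relative to the 75th percentile of the array, which lay between 821 and 1027 intensity units. The number of probes well above background ranged from 28083 to 30206 per array. Differences are log2 differences ± SE from a limma fit of all 15 arrays over 22865 genes, with p-values adjusted over all of them (Benjamini-Hochberg, called at 0.05), and no level is compared between probes. The p-values measure the spread between these arrays, which the labels number as replicates. Nr3c1 ran from 1.49 to 1.79 in dflox and from 2.08 to 2.28 in MREmx1-cre, against -0.66 to -0.53 in GREmx1-cre and -0.08 to 0.09 in GRMREmx1-cre. Nr3c2 ran from -3.66 to -3.36 in dflox, -3.15 to -3.04 in GREmx1-cre, -3.76 to -3.46 in MREmx1-cre and -4.01 to -3.72 in GRMREmx1-cre. This probe differed from dflox by -0.11 in MREmx1-cre and -0.31 in GRMREmx1-cre, and the other Nr3c2 probes by -0.77 and -0.38 in MREmx1-cre and by -0.32 and -0.29 in GRMREmx1-cre. The place of its probes relative to the deleted exons was not analysed here, so these values do not check the deletion of MR. Because the arrays of a genotype shared 1 slide of their own, a slide effect and a genotype effect cannot be told apart. With another background correction (normexp), the median of all genes in GRMREmx1-cre against dflox moved from 0.03 to 0.42, and Htr2a, Htr5a and Htr7 were called up there (1.71, 1.36 and 1.15). Array 2 of MREmx1-cre stood apart in choroid plexus markers (Ttr at -2.58, against 3.38 and above on the other arrays). Array 1 of GREmx1-cre stood apart in Synpo2, 1 gene of the thalamus and habenula list, at 1.82 against -5.39 to -4.15 on the others. The comparisons with dflox share the same 4 control arrays.

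Of the 7 members tested, Tph2 was called up against dflox in both lines lacking GR, and no member but Tph2 and Htr4 was called in any of the 7 comparisons. In MREmx1-cre Tph2 was also higher than in dflox (0.57), just short of the threshold (limma adjusted p = 0.0502). Htr4 was called lower in the lines lacking MR, but it passed the filter on dim probes only through 5 arrays of the groups with MR, so it entered the test because it was higher there, and its calls are given as a description. Against dflox, 1 member was called in GREmx1-cre (Tph2, up), where 3.15% of all genes were called. In MREmx1-cre 1 member was called (Htr4, down), where 6.81% of all genes were called. In GRMREmx1-cre 2 members were called (Tph2 up, Htr4 down), beside 16.3% of all genes. GRMREmx1-cre differed from GREmx1-cre in 1 member (Htr4, down; 16.1% of all genes) and from MREmx1-cre in 1 member (Tph2, up; 2.98% of all genes). MREmx1-cre differed from GREmx1-cre in 1 member (Htr4, down; 9.33% of all genes). The interaction, which is the difference between GRMREmx1-cre and GREmx1-cre minus that between MREmx1-cre and dflox, called 0 members by limma, 0 also at an unadjusted p under 0.05, beside 1.29% of all genes. The median log2 difference of the 7 members from dflox was -0.04 in GREmx1-cre, -0.06 in MREmx1-cre and 0.11 in GRMREmx1-cre, and over all genes it was 0.02, 0.04 and 0.03.

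**Figure D1:**
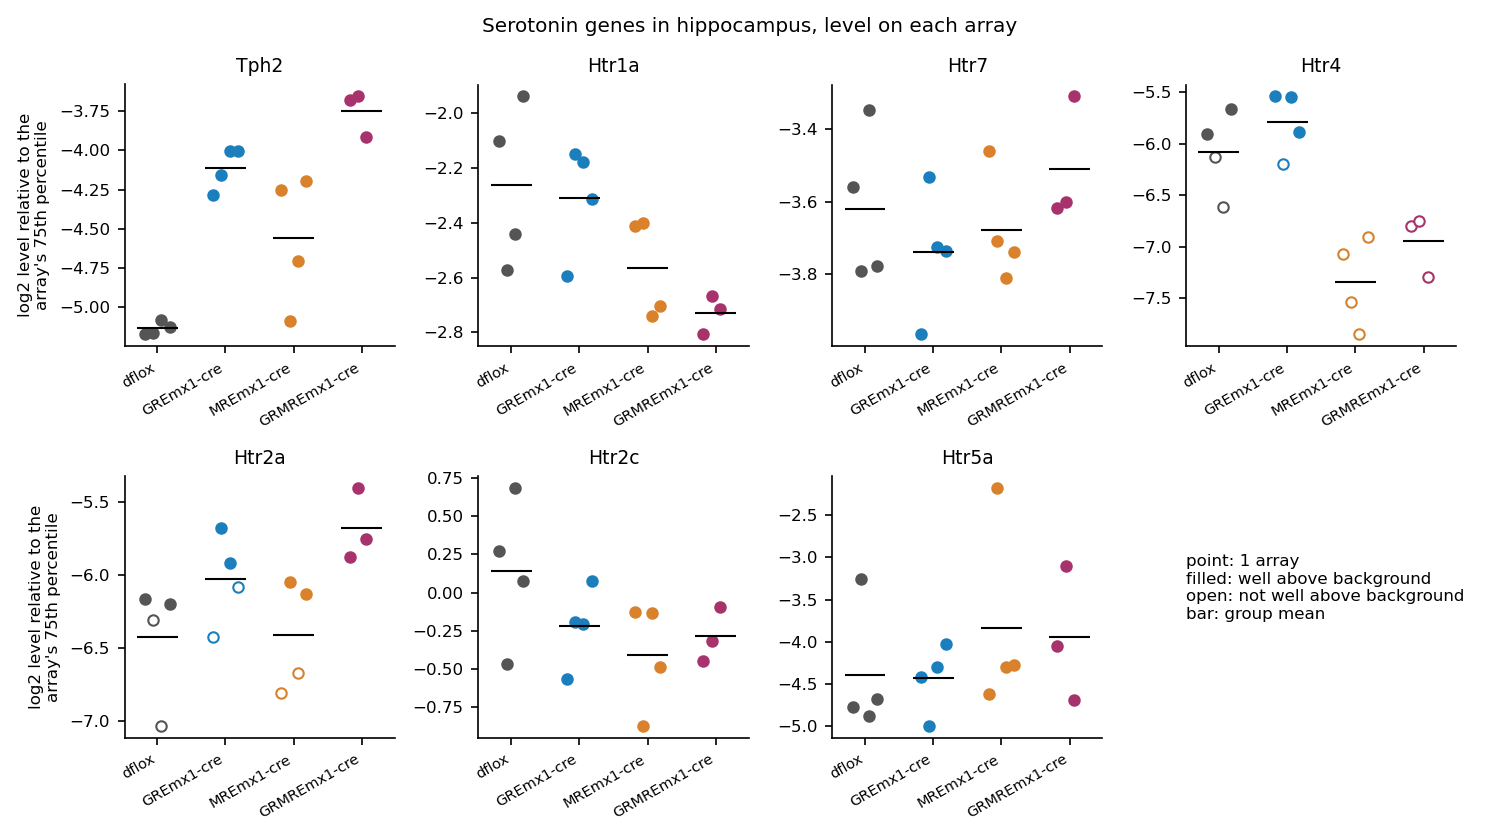
Log2 level of each tested member on every array (vertical axis, relative to the 75th percentile of the array, a separate scale per gene) in the 4 genotypes. Points are arrays, open where the probe was not well above background, and bars are group means. All Tph2 points of GREmx1-cre and GRMREmx1-cre lie above the 4 dflox points (-5.17 to -5.08), and all Htr4 points of MREmx1-cre and GRMREmx1-cre are open.

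Tph2, the rate-limiting enzyme of serotonin synthesis in neurons, was measured well above background on all 15 arrays, at low intensity (25.9 to 73.5). In dflox its level was -5.17, -5.17, -5.08 and -5.12 on the 4 arrays. In GREmx1-cre it was -4.29, -4.16, -4.01 and -4.00, so that every array lay above every dflox array. Its rise in GREmx1-cre was 2.03-fold (1.02 ± 0.16, n = 4 and 4, limma adjusted p = 0.00644). The GRMREmx1-cre arrays, at -3.68, -3.66 and -3.92, were the highest of all 15. Tph2 rose 2.61-fold there against dflox (1.38 ± 0.17, n = 3 and 4, limma adjusted p = 0.000281). MREmx1-cre arrays were spread between the other groups, at -4.25, -5.09, -4.71 and -4.20. The difference of 0.57 ± 0.16 from dflox was not called (95% interval 0.23 to 0.92, limma adjusted p = 0.0502). Array 2, which stood apart in choroid plexus markers, was the lowest of the group, and without it the difference was 0.75 (limma adjusted p = 0.00516). Over all 15 omissions of 1 array the difference ran from 0.45 to 0.75, with limma adjusted p-values from 0.00516 to 0.1287.

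The order of mean Tph2 levels was GRMREmx1-cre (-3.75 ± 0.14, SD), GREmx1-cre (-4.11 ± 0.14), MREmx1-cre (-4.56 ± 0.42) and dflox (-5.14 ± 0.04). No neighbours in that order differed past the threshold. GRMREmx1-cre lay 0.36 ± 0.17 above GREmx1-cre (limma adjusted p = 0.182), and MREmx1-cre lay 0.45 ± 0.16 below GREmx1-cre (limma adjusted p = 0.104). That last difference was called without array 4 of MREmx1-cre (-0.57, limma adjusted p = 0.0454). Over all 15 omissions it ran from -0.57 to -0.27, with limma adjusted p-values up to 0.2138. Between groups further apart, GRMREmx1-cre exceeded MREmx1-cre 1.75-fold (0.81 ± 0.17, n = 3 and 4, limma adjusted p = 0.0269). This call was lost without array 3 of MREmx1-cre (0.76), array 1 of GRMREmx1-cre (0.77) or array 2 of GRMREmx1-cre (0.76), with adjusted p-values from 0.0719 to 0.115, and in a fit of only these 2 groups (0.151). The interaction was -0.21 ± 0.24 (95% interval -0.72 to 0.30, limma adjusted p = 0.699). The calls of both lines lacking GR against dflox held without each of the 15 arrays in turn (0.99 to 1.08 in GREmx1-cre and 1.34 to 1.47 in GRMREmx1-cre). With normexp the GREmx1-cre call ended, at 0.46.

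Of the other raphe genes, Slc6a4, the serotonin transporter, was not well above background on any array. Its intensity was 4.04 to 9.75, where the dimmest probe counted as well above background on each array had 9.76 to 16.9. The raphe marker list held 9 genes, of which 7 could be tested: Tph2, Fev, Ddc, Slc18a2, Lmx1b, Gata2 and Gata3. Slc6a4 and En1, a midbrain and hindbrain transcription factor, were not well above background on any array. The summed level of the 7 was 0.39 to 0.63 in dflox, 0.28 to 0.57 in GREmx1-cre, 0.78 to 0.91 in MREmx1-cre and 0.84 to 1.09 in GRMREmx1-cre. The sum adds linear values, so that probes of low signal such as that of Tph2 weigh little in it. Against dflox, 1 of the 7 was called up in GREmx1-cre (Tph2), 1 in MREmx1-cre (Ddc) and 2 in GRMREmx1-cre (Tph2 and Ddc), and 0 were called down. The share of all genes called in these lines was 3.15%, 6.81% and 16.3%. Fev, a transcription factor that marks serotonin neurons, ran from -4.32 to -4.24 in dflox, -4.80 to -3.94 in GREmx1-cre, -4.31 to -3.99 in MREmx1-cre and -4.33 to -3.51 in GRMREmx1-cre, and was not called. Slc18a2 differed from dflox by -0.62 in GREmx1-cre, opposite to Tph2, and was not called. Its other probe gave -0.48. The part of serotonin axons or of brainstem tissue in the Tph2 values was not tested.

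**Figure D2:**
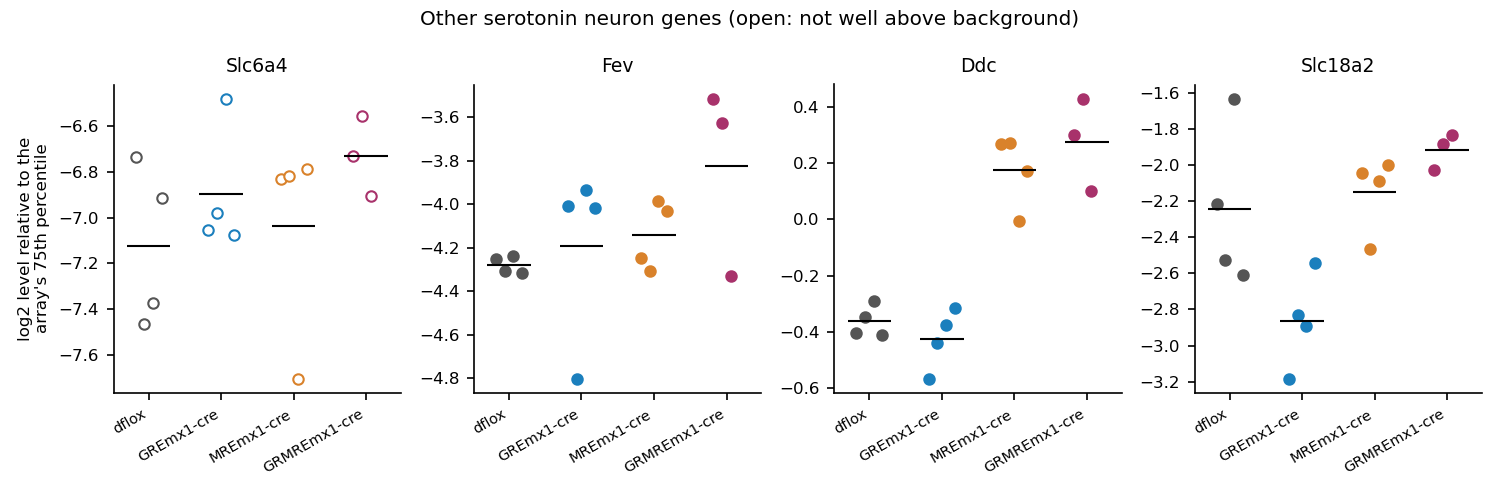
Log2 level of 4 other genes of serotonin neurons on every array (vertical axis, relative to the 75th percentile of the array, a separate scale per gene) by genotype. Points are arrays, open where not well above background, and bars are group means. Every Slc6a4 point is open, and Ddc is higher on all MREmx1-cre and GRMREmx1-cre arrays (-0.01 to 0.43) than on the other arrays.

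Of the Gi/o-coupled receptors, Htr1a was well above background on all 15 arrays at intensities of 126 to 240. Its level was -2.10, -2.57, -2.44 and -1.94 in dflox, and -2.59, -2.15, -2.18 and -2.31 in GREmx1-cre. In MREmx1-cre it was -2.41, -2.40, -2.74 and -2.70, and in GRMREmx1-cre it was -2.81, -2.67 and -2.72. No group rose above the controls: the order of the means was dflox (-2.26 ± 0.29, SD), GREmx1-cre (-2.31 ± 0.20), MREmx1-cre (-2.56 ± 0.18) and GRMREmx1-cre (-2.73 ± 0.07). GREmx1-cre differed from dflox by -0.04 ± 0.14, with a 95% interval of -0.36 to 0.26 (limma adjusted p = 0.907). MREmx1-cre differed from dflox by -0.30 ± 0.14 (-0.61 to 0.01, limma adjusted p = 0.245). The 3 GRMREmx1-cre arrays lay below all dflox and all GREmx1-cre arrays. The difference from dflox was -0.47 ± 0.15 (95% interval -0.80 to -0.13, limma adjusted p = 0.0581), short of the threshold. It passed with median scaling (-0.55, limma adjusted p = 0.0475), without array 2 of dflox (-0.57, limma adjusted p = 0.0273) and without array 1 of GREmx1-cre (limma adjusted p = 0.0439), and with normexp it was 0.44. Over all 15 omissions of 1 array it ran from -0.57 to -0.36 (highest limma adjusted p = 0.1555). Against GREmx1-cre the difference was -0.42 ± 0.15 (limma adjusted p = 0.0841), called only without array 1 of GREmx1-cre. No neighbours in the order differed past the threshold.

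Htr1b, a receptor mostly on axon terminals, was not well above background on any array (intensity 2.87 to 14.0) and has no level here. Htr5a, a neuronal Gi/o-coupled receptor, was well above background on every array, but single arrays dominated its spread. It was -4.78, -3.26, -4.88 and -4.68 in dflox and -4.42, -5.00, -4.29 and -4.03 in GREmx1-cre. In MREmx1-cre it was -4.62, -2.17, -4.30 and -4.28, and in GRMREmx1-cre it was -4.05, -3.10 and -4.69. The array numbered 2 was the highest of dflox, MREmx1-cre and GRMREmx1-cre and the lowest of GREmx1-cre. The groups overlapped in every comparison. Differences from dflox were -0.04 ± 0.54, 0.56 ± 0.54 and 0.45 ± 0.58 in GREmx1-cre, MREmx1-cre and GRMREmx1-cre (limma adjusted p = 0.986, 0.598 and 0.659). The 95% interval in GREmx1-cre ran from -1.20 to 1.13, the widest of the 7 members. Without array 2 of MREmx1-cre the difference of that line was 0.0017.

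Of the Gq-coupled receptors, Htr2c is carried by neurons and, at very high levels, by the epithelium of the choroid plexus. Its level was 0.27, -0.47, 0.68 and 0.07 in dflox and -0.57, -0.19, -0.21 and 0.07 in GREmx1-cre. In MREmx1-cre it was -0.13, -0.87, -0.13 and -0.49, and in GRMREmx1-cre it was -0.45, -0.32 and -0.10. The groups overlapped, and no difference was called. Differences from dflox were -0.36 ± 0.23, -0.55 ± 0.23 and -0.43 ± 0.25 in GREmx1-cre, MREmx1-cre and GRMREmx1-cre (limma adjusted p = 0.43, 0.187 and 0.282). The other Htr2c probe gave -0.14, -0.38 and -0.30. Over the 15 arrays Htr2c correlated with Ttr, the transthyretin gene of choroid plexus, at Pearson's r = 0.66, and Htr5a at -0.78, a description over arrays that share their groups. Array 2 of MREmx1-cre was the lowest of the 15 in Htr2c and Ttr and the highest in Htr5a.

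**Figure D3:**
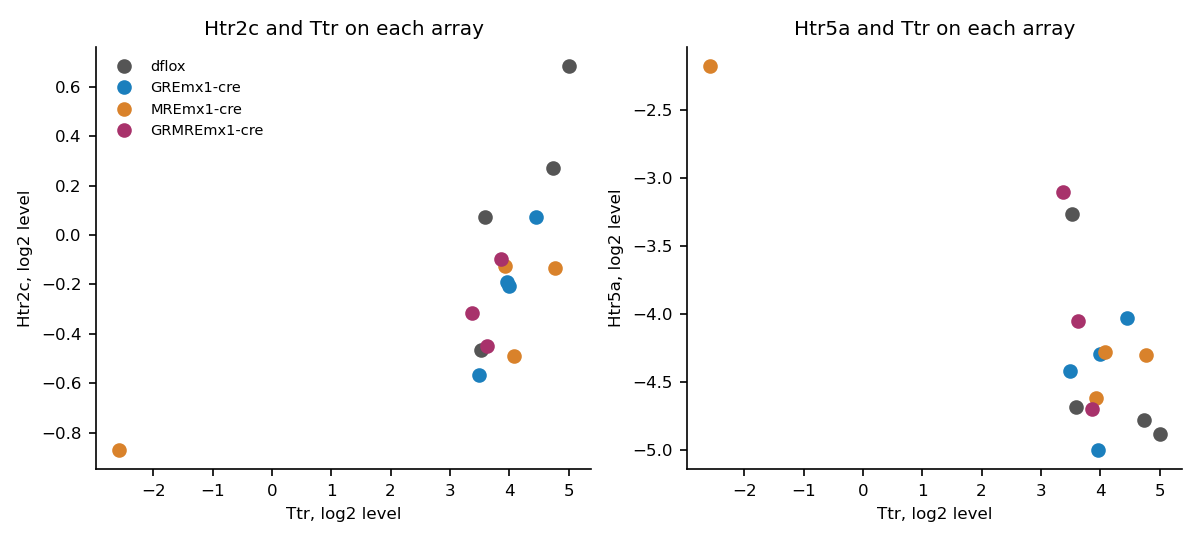
Log2 level of Htr2c (left) and Htr5a (right) on the vertical axis against the log2 level of Ttr on the horizontal axis, 1 point per array, coloured by genotype. The MREmx1-cre array with Ttr at -2.58 stands alone at the left, with Htr2c at -0.87 and Htr5a at -2.17.

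The choroid plexus list gives the amount of that tissue beside the Htr2c values. All 11 of its tested genes (of 12 listed) were well above background on every array, and limma called 0 of 11 against dflox in any line, 0 also at an unadjusted p under 0.05. Their median difference from dflox was -0.16 in GREmx1-cre, -1.10 in MREmx1-cre and -0.59 in GRMREmx1-cre. Their summed level was 6.05 to 7.30 in dflox, 5.97 to 6.97 in GREmx1-cre, 3.20 to 7.20 in MREmx1-cre and 5.90 to 6.16 in GRMREmx1-cre. The part of choroid plexus in the Htr2c differences was not tested. Without array 2 of MREmx1-cre the Htr2c difference of that line was -0.39 (limma adjusted p = 0.38).

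Htr2a, the receptor of the classical hallucinogens and densest in neocortex, was near the detection limit, well above background on 9 of 15 arrays (intensity 7.86 to 21.5). Its level ran from -7.03 to -6.16 in dflox (2 of 4 arrays above background), -6.42 to -5.68 in GREmx1-cre (2 of 4), -6.81 to -6.05 in MREmx1-cre (2 of 4) and -5.88 to -5.40 in GRMREmx1-cre (3 of 3). GRMREmx1-cre arrays were all above those of dflox and MREmx1-cre. The difference of 0.75 ± 0.25 from dflox was not called (95% interval 0.20 to 1.29, limma adjusted p = 0.0622), nor was that of 0.73 ± 0.25 from MREmx1-cre (limma adjusted p = 0.149). GREmx1-cre differed from dflox by 0.40 ± 0.23 (limma adjusted p = 0.382) and MREmx1-cre by 0.01 ± 0.23 (limma adjusted p = 0.985). The neocortex list of 7 genes had a summed level of 2.67 to 2.81 in dflox, 2.63 to 2.77 in GREmx1-cre, 3.04 to 3.3 in MREmx1-cre and 3.11 to 3.22 in GRMREmx1-cre. In each of the last 2 lines 2 of its genes were called up (Rspo1 and Lmo3) and 0 down, beside 6.81% and 16.3% of all genes called. The summed levels of MREmx1-cre and GRMREmx1-cre overlapped. The part of adjoining cortex in the Htr2a values was not tested.

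Htr4, a Gs-coupled receptor of hippocampal neurons, was dimmer without MR. Its level was -5.91, -6.13, -6.61 and -5.66 in dflox and -5.54, -6.20, -5.55 and -5.89 in GREmx1-cre. It was -7.08, -7.54, -7.85 and -6.91 in MREmx1-cre and -6.80, -6.76 and -7.30 in GRMREmx1-cre. Every array lacking MR lay below every array with MR. The probe was dim throughout (intensity 3.64 to 19.6), well above background on 2 dflox and 3 GREmx1-cre arrays and on none of the 7 arrays lacking MR. Folds are therefore approximate bounds: the mean of the brighter group against, per array, the dimmest signal that counted as well above background. That mean includes arrays not well above background. Signals that did not count as well above background can also exceed the dimmest one that did, so the true folds could be smaller. By these bounds Htr4 was about 1.31-fold or more lower in MREmx1-cre than in dflox (limma adjusted p = 0.0095) and about 1.60-fold or more lower than in GREmx1-cre (limma adjusted p = 0.002). In GRMREmx1-cre it was about 1.19-fold or more lower than in dflox (limma adjusted p = 0.0423) and about 1.45-fold or more lower than in GREmx1-cre (limma adjusted p = 0.0114). These p-values come from the fit of the measured signals, which below background are not levels, and from a gene the filter kept for its brighter groups. With no filter on dim probes the adjusted p-values in the same order were 0.016, 0.00364, 0.0626 and 0.0189.

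Between the groups with MR, GREmx1-cre lay 0.29 ± 0.25 above dflox for Htr4 (limma adjusted p = 0.576). MREmx1-cre and GRMREmx1-cre were both below background, so their difference and the interaction are not given. The MREmx1-cre call against dflox held without each array in turn (-1.44 to -1.10) and ended with normexp (-0.06). These omissions reused the filter on all 15 arrays, so they describe the call and do not test it. The GRMREmx1-cre call against dflox was lost without array 1, 2 or 4 of dflox, 3 or 4 of GREmx1-cre, 2 of MREmx1-cre, or any 1 of GRMREmx1-cre (-1.05 to -0.70 over all 15 omissions, highest adjusted p = 0.157). Against GREmx1-cre it was lost without array 3 of GRMREmx1-cre (-0.98, limma adjusted p = 0.058). With normexp, GRMREmx1-cre turned from lower to higher for Htr4, at 1.55 against dflox and 1.37 against GREmx1-cre. The other Htr4 probe was not well above background on any array.

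Htr7, also Gs-coupled and found on thalamic and hippocampal neurons, was the steadiest of the 7 members in these arrays, with a range of 0.66 over all 15. It ran from -3.79 to -3.35 in dflox, -3.96 to -3.53 in GREmx1-cre, -3.81 to -3.46 in MREmx1-cre and -3.62 to -3.31 in GRMREmx1-cre. The groups overlapped in every comparison. Differences from dflox were -0.12 ± 0.12 (95% interval -0.38 to 0.14), -0.06 ± 0.12 (-0.32 to 0.20) and 0.11 ± 0.13 (-0.18 to 0.39) in GREmx1-cre, MREmx1-cre and GRMREmx1-cre.

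**Figure D4:**
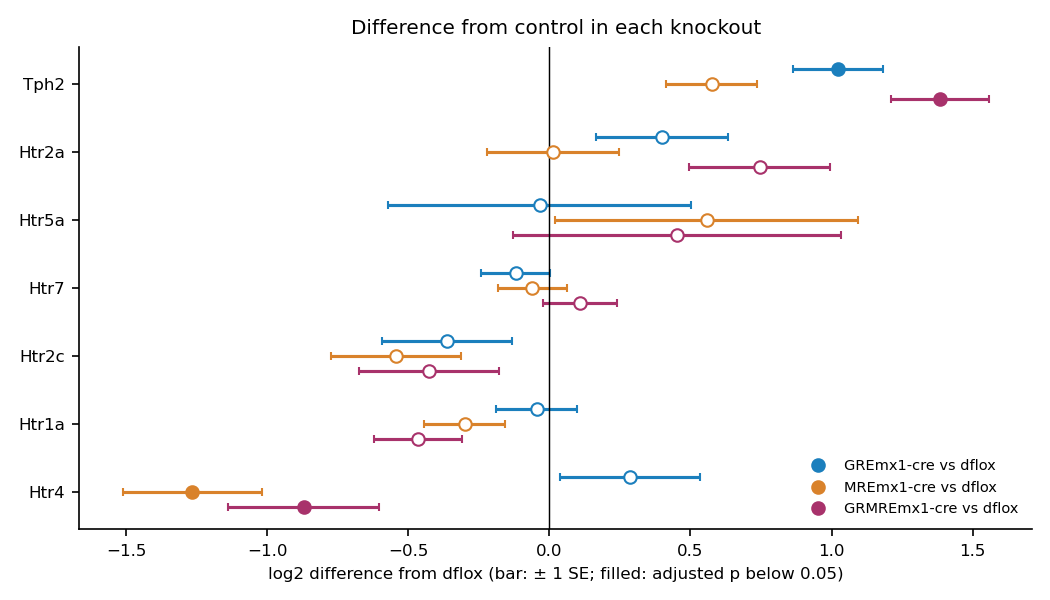
Log2 difference of each tested member from dflox (horizontal axis) in GREmx1-cre, MREmx1-cre and GRMREmx1-cre. Points are fitted differences, filled where the adjusted p was below 0.05, and bars are 1 SE to each side. The filled points are Tph2 in GREmx1-cre (1.02) and GRMREmx1-cre (1.38) and Htr4 in MREmx1-cre and GRMREmx1-cre, where Htr4 was below background on every array. These Htr4 points stand only for approximate bounds of 1.31-fold and 1.19-fold.

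Of 6 further serotonin receptor genes, 5 were tested (Htr1d, Htr1f, Htr2b, Htr5b and Htr6). Htr3b was not well above background on any array. Against dflox, limma called 0 of 5 in GREmx1-cre and in MREmx1-cre (1 and 0 at an unadjusted p under 0.05), while in GRMREmx1-cre 1 was called up and 1 down. Their median difference was 0.20, 0.03 and -0.16 in these lines, beside 0.02, 0.04 and 0.03 over all genes, of which 3.15%, 6.81% and 16.3% were called. Htr2b, a Gq-coupled receptor best known outside the brain, was -4.04, -4.48 and -4.58 in GRMREmx1-cre, above all other arrays (-7.51 to -5.08). Its measured signal was 4.51-fold higher than in dflox (2.17 ± 0.41, limma adjusted p = 0.00367). In dflox only 1 of 4 arrays was well above background, so the size of this fold is uncertain. Htr2b was also 3.74-fold higher than in MREmx1-cre (limma adjusted p = 0.0282), a call lost without any 1 of the 7 arrays of these lines (1.74 to 2.01). Htr5b, the mouse paralogue of Htr5a, was -2.18, -1.89 and -2.04 in GRMREmx1-cre, below all other arrays (-1.79 to -1.07). It fell by 0.64 ± 0.14 against dflox (limma adjusted p = 0.00832) and by 0.72 ± 0.14 against GREmx1-cre (limma adjusted p = 0.0048). With normexp the first of these was 0.01. Htr1d was 0.84 on array 1 of GREmx1-cre and -6.88 to -4.95 on the other arrays, and was not called.

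**Figure D5:**
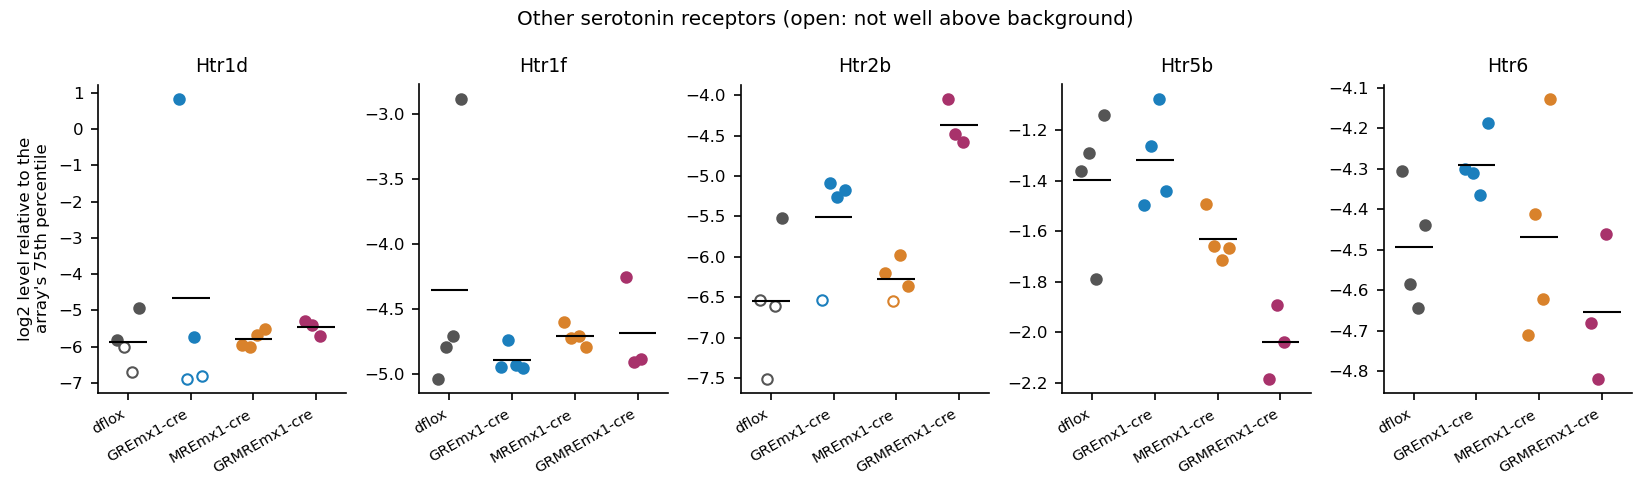
Log2 level of the other serotonin receptor genes on every array (vertical axis, relative to the 75th percentile of the array, a separate scale per gene) by genotype. Points are arrays, open where not well above background, and bars are group means. The 3 GRMREmx1-cre arrays are the highest for Htr2b (-4.58 to -4.04) and the lowest for Htr5b (-2.18 to -1.89).

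Genes of serotonin synthesis, storage, uptake and breakdown (19 listed, 17 tested) were listed apart from Tph2 and Slc6a4, which are members. Against dflox, limma called 0 of 17 in GREmx1-cre (1 at an unadjusted p under 0.05), 1 up and 2 down in MREmx1-cre, and 2 up and 2 down in GRMREmx1-cre, beside 3.15%, 6.81% and 16.3% of all genes. Their median difference was 0.03, 0.09 and 0.03. Ddc, the decarboxylase after Tph2, was -0.41 to -0.29 in dflox, -0.57 to -0.32 in GREmx1-cre, -0.01 to 0.27 in MREmx1-cre and 0.10 to 0.43 in GRMREmx1-cre. It rose 1.45-fold in MREmx1-cre (0.54 ± 0.08, limma adjusted p = 0.0023) and 1.56-fold in GRMREmx1-cre (0.64 ± 0.09, limma adjusted p = 0.000546). A second Ddc probe gave 0.89 and 1.11. Gch1, which makes the cofactor of Tph2, fell by 0.58 in MREmx1-cre (limma adjusted p = 0.043), and Tdo2, a tryptophan-degrading enzyme also listed as a granule cell marker, fell by 0.68 (limma adjusted p = 0.0446). Of 15 omissions of 1 array, the Gch1 call held only without array 1 of dflox, 3 of MREmx1-cre or 2 of GRMREmx1-cre, and the Tdo2 call only without array 3 of MREmx1-cre or 2 or 3 of GRMREmx1-cre (highest adjusted p = 0.109 and 0.11). Both calls were also lost with median scaling (0.0585 and 0.0526), with no filter on dim probes (0.0694 and 0.0712) and with only the groups compared (0.113 and 0.11). Normexp lost them as well. Both held with quantile normalization (limma adjusted p = 0.045 and 0.0458) and with the mean of a gene's probes (0.00974 and 0.01895). The second probes of Gch1 and Tdo2 gave -0.71 and -0.755 in MREmx1-cre against dflox. In GRMREmx1-cre Tdo2 fell by 0.93 (limma adjusted p = 0.00688) and Maoa, the main enzyme of serotonin breakdown, rose 1.25-fold (limma adjusted p = 0.000985). With normexp Tdo2 was 0.48 there and Maoa 0.02.

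In the same list GRMREmx1-cre differed from GREmx1-cre in 3 genes up and 2 down (16.1% of all genes called), led by Ddc (0.70), Maoa (0.30) and Tdo2 (-0.93). MREmx1-cre differed from GREmx1-cre in 2 up and 1 down (9.33% of all genes called): Ddc (0.60), Slc18a2 (0.71), the vesicular monoamine transporter, and Tdo2 (-0.67). The calls of Slc18a2 and Tdo2 there had adjusted p-values of 0.0383 and 0.0377 (limma). The Slc18a2 call was lost without array 1 of dflox, 1, 2 or 3 of GREmx1-cre, 1, 3 or 4 of MREmx1-cre, or 2 or 3 of GRMREmx1-cre, and the Tdo2 call without any 1 GREmx1-cre array or array 1, 2 or 4 of MREmx1-cre (highest 0.0997 and 0.0999). With normexp the Tdo2 difference between GRMREmx1-cre and GREmx1-cre was 0.53. For GRMREmx1-cre against MREmx1-cre and for the interaction limma called 0 of 17, with 2 and 3 at an unadjusted p under 0.05, beside 2.98% and 1.29% of all genes called.

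Of 8 transcription factors of raphe serotonin neurons, 6 were tested and 1 was called, Insm1, a zinc finger factor of neuronal progenitors. It rose by 0.38 in MREmx1-cre (limma adjusted p = 0.0369) and 0.43 in GRMREmx1-cre (limma adjusted p = 0.0154) against dflox, and by 0.62 and 0.67 against GREmx1-cre (limma adjusted p = 0.00189 and 0.00132). In these comparisons 6.81%, 16.3%, 9.33% and 16.1% of all genes were called, so 1 of 6 is near the share in both comparisons of GRMREmx1-cre. Of these Insm1 calls, some depended on single arrays. The first call was lost without array 1, 2 or 4 of dflox, 2 of GREmx1-cre, 3 of MREmx1-cre or 2 of GRMREmx1-cre (highest adjusted p = 0.101), and the second without array 1 of GRMREmx1-cre (0.0597).

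Among 33 receptor partners and effectors, limma called 1 up and 0 down in GREmx1-cre, 3 up and 2 down in MREmx1-cre and 4 up and 2 down in GRMREmx1-cre, against dflox, with median differences of 0.04 in each line. Of all genes 3.15%, 6.81% and 16.3% were called, which is near the share of this list in GREmx1-cre and GRMREmx1-cre. S100a10 (p11), an adaptor that brings Htr1b and Htr4 to the cell surface, was 1.94 to 2.06 in dflox, 2.61 to 2.70 in GREmx1-cre, 1.77 to 2.18 in MREmx1-cre and 2.94 to 3.22 in GRMREmx1-cre. It rose 1.59-fold in GREmx1-cre (0.67 ± 0.08, limma adjusted p = 0.00194) and 2.09-fold in GRMREmx1-cre (1.06 ± 0.09, limma adjusted p = 3.08e-05), the 2 lines in which Tph2 was called up. In MREmx1-cre Arrb1, a beta-arrestin, rose by 0.34 (limma adjusted p = 0.00246), Kcnj9, a subunit of the potassium channels opened by Gi/o proteins, by 0.40 (0.00621), and Adcy9, an adenylyl cyclase, fell by 0.41 (0.0136). With normexp these calls were lost (limma adjusted p = 0.621, 0.481 and 0.229), as was that of S100a10 in GREmx1-cre (0.0522), and Adcy9 was lost with only the groups compared (0.0546). Normexp called far fewer of all genes in both lines. The differences it gave were 0.34, 0.38 and -0.42 in MREmx1-cre, and 0.66 for S100a10 in GREmx1-cre. In GRMREmx1-cre Adcy9 fell by 0.61 (limma adjusted p = 0.000937) and Adcy1, a cyclase of hippocampal neurons, by 0.98 (0.00419).

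Between the lines, GRMREmx1-cre differed from GREmx1-cre in Adcy9 (-0.59), Adcy8 (0.65) and Adcy1 (-0.98), among the calls with the smallest adjusted p. It differed from MREmx1-cre in S100a10 (1.12) and Arrb1 (-0.28), the second lost without array 2 or 3 of either line (highest adjusted p = 0.0872). MREmx1-cre differed from GREmx1-cre in S100a10 (-0.73), Arrb1 (0.26) and Adcy9 (-0.39). The interaction called 1 of 33, Arrb1 (-0.36, limma adjusted p = 0.0465), beside 1.29% of all genes. This call was lost without any 1 array other than array 1 of MREmx1-cre, up to a limma adjusted p of 0.119.

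Markers of hippocampal cells were called in the lines in which Htr4 was dimmer. Against dflox, dentate granule cell markers called 1 up and 0 down of 11 in GREmx1-cre, 1 up and 5 down in MREmx1-cre and 0 up and 6 down in GRMREmx1-cre. Of 7 CA2 markers limma called 0, 4 down and 4 down in these lines, of 8 CA3 markers 1 up, 2 down and 2 down, and of 8 CA1 markers 0, then 1 up and 1 down, then 2 up and 2 down. The counts of 0 in GREmx1-cre were 1 each for CA2 and CA1 at an unadjusted p under 0.05. Beside these counts, 3.15%, 6.81% and 16.3% of all genes were called in GREmx1-cre, MREmx1-cre and GRMREmx1-cre. The summed CA2 level was 5.53 to 5.61 in dflox, 5.53 to 5.65 in GREmx1-cre, 5.01 to 5.22 in MREmx1-cre and 4.99 to 5.22 in GRMREmx1-cre. The summed granule cell level was 4.99 to 5.50, 5.22 to 5.53, 4.75 to 4.95 and 4.49 to 4.82 in the same order. For CA3 it was 4.41 to 4.59, 4.40 to 4.54, 4.11 to 4.22 and 4.19 to 4.36. Granule, CA2 and CA3 sums of both lines lacking MR thus lay below those of the other arrays. For CA1 the ranges overlapped: 6.76 to 7.02, 6.82 to 7.03, 6.94 to 7.14 and 6.72 to 7.04. The part of these cell types in the Htr4 difference was not tested.

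Markers of cells outside the principal layers were called as well. Of 17 GABAergic interneuron markers limma called 0, 0 and 1 down (Cck; 3 and 3 at an unadjusted p under 0.05 in the first lines) in GREmx1-cre, MREmx1-cre and GRMREmx1-cre, and their summed level was 7.46 to 7.53 in dflox, 7.36 to 7.46, 7.33 to 7.49 and 7.26 to 7.32. Astrocyte markers called 1, 1 and 3 up of 7, with sums of 5.34 to 5.47 in dflox, 5.42 to 5.54, 5.41 to 5.64 and 5.59 to 5.80. Microglia markers called 1 down, 4 up and 4 up of 7, with sums of 3.51 to 3.63 in dflox, 3.62 to 3.71, 3.82 to 3.95 and 3.87 to 4.09. Of 9 thalamus and habenula markers limma called 0 (2 at an unadjusted p under 0.05), 2 and 3 up, with sums of 2.70 to 2.97 in dflox, 2.64 to 3.28, 2.76 to 2.94 and 2.91 to 3.08. The 3.28 was on the array with high Synpo2. Beside the counts of this paragraph, 3.15%, 6.81% and 16.3% of all genes were called in GREmx1-cre, MREmx1-cre and GRMREmx1-cre. The part of these cells in the Tph2 and Htr2b differences was not tested.

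The genes whose levels ran most like the called members over the 15 arrays were, for Tph2, Col2a1 (Pearson's r = 0.95), Cd4 (0.94) and Mamstr (0.94), and for Htr4, Dgka (0.95), Gm20754 (0.94) and Nmb (0.93). These are descriptions over arrays of 4 groups. The Htr4 probe was well above background on only 5 of the 15 arrays, so its correlations include signals that are not levels. Col2a1, the chain of cartilage collagen, was -3.23 to -3.06 in dflox, -2.72 to -2.54 in GREmx1-cre, -3.08 to -2.70 in MREmx1-cre and -2.53 to -2.17 in GRMREmx1-cre, the same order of groups as Tph2. Dgka, a diacylglycerol kinase, was -0.23 to -0.06 in dflox, -0.13 to -0.02 in GREmx1-cre, -0.71 to -0.30 in MREmx1-cre and -0.56 to -0.30 in GRMREmx1-cre. Like the measured signal of Htr4, it was lower on every array lacking MR than on every array with it. Genes picked for their correlation with a member over these arrays tend to share its order of groups by that choice. Nmb, a neuropeptide gene, was 0.35 to 0.74 on the arrays with MR and -0.04 to 0.28 on those without.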

How the data were processed

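RNA of 15 hippocampi was measured on single-colour arrays of 45018 spots (43379 not controls). The submitters' processing notes name Feature Extraction 12.0 of Agilent as the scanner software. Its processed signal, per the file headers, is an intensity, already corrected for background, and other columns hold flags (0 or 1) for outlier, saturated and well above background spots. The value table the authors deposited held the same intensity at all 45018 spots of each array. Here log2 intensity minus the 75th percentile over non-control spots was taken, outlier spots (1281) were dropped, and probes (41174) were averaged. Accessions were named through RefSeq (GRCm38.p6, names only, while the array was designed on mm9): 28223 probes had 1 symbol, 0 several and 12951 none. The 30873 probes that stood well above background on 3 or more arrays gave 22865 genes, the brightest probe per gene. A group-means model with lmFit and eBayes (limma 3.58.1, R 4.3.3), tested on simulated data, covered 7 comparisons. A summed level is the log2 of summed linear values. Figures used matplotlib 3.10.9 in Python 3.11.15.

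Same-numbered arrays share only a slide position, and their deviations correlated above 0.1 in only some pairs, so numbers were not used as pairs. Normexp, planned on mean spot signals, was run on median spot signals, a choice made after seeing the files. The genes named are the members, both targeted genes, the 3 genes of highest correlation with each called member, and up to 3 called genes per pathway list and comparison by smallest adjusted p. Htr1d, Htr6, Fev, Ttr, Synpo2 and further marker genes were named after their values were seen. Lists with markers of other cell types share some genes (Tdo2, Rgs14, Prkcd, Calb2, Ddc, Slc18a2, Fev). The members and lists were chosen with earlier results of these data known. Alternatives were quantile and median scaling, normexp, other filters on dim probes, the mean of a gene's probes, only the groups compared, a replicate block, and leaving out each array.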

Additional observations from a re-analysis of the deposited data

Results flagged for a closer look

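In groups of 4 arrays, 8 of 69 tested sets held a lowest or highest array set apart from the rest (gap over range above 0.829), where chance gives about 1 in 20. Htr5a was -3.26 on array 2 of dflox (others -4.88 to -4.68) and -2.17 on array 2 of MREmx1-cre (others -4.62 to -4.28). Htr2a was -7.03 on array 3 of dflox, not well above background there (others -6.31 to -6.16). The summed level of the other serotonin receptors was 1.17 on array 1 of GREmx1-cre (others -1.02 to -0.73), the array with high Htr1d. On the same array the summed thalamus and habenula level was 3.28 (others 2.64 to 2.72). Synpo2 of that list was 1.82 there, against -5.39 to -4.15 on all other arrays. The sum adds linear values, so this 1 gene weighs heavily in it on that array. The summed thalamus and habenula level was 2.97 on array 3 of dflox (others 2.70 to 2.74). The summed raphe regulator level was -0.86 on array 2 of dflox (others -0.67 to -0.65). The summed CA1 level was 6.94 on array 1 of MREmx1-cre (others 7.11 to 7.14).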

How the results depend on the processing

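Of 1113 recomputed differences of the 7 members, 1037 kept their direction and side of the threshold, 19 lost a call, 18 gained one and 39 changed sign. Genes called in GREmx1-cre against dflox (721) numbered 425 with quantile normalization, 440 with median scaling, 471 with no filter on dim probes and 346 with only the groups compared. MREmx1-cre against dflox (1557) gave 1029 with median scaling and 695 with only the groups compared, which gave 420 for GRMREmx1-cre against MREmx1-cre and 1238 for MREmx1-cre against GREmx1-cre. The interaction (295) gave 182 with median scaling and 138 with no filter. Rises made up 518 of the 721 calls in GREmx1-cre, 245 of 425 with quantile and 247 of 440 with median scaling. In GRMREmx1-cre against dflox they made up 2610 of 3716, and 1539 of 3251 with median scaling. In MREmx1-cre against dflox they made up 962 of 1557, and 524 of 1029 with median scaling. In GRMREmx1-cre against MREmx1-cre they made up 538 of 681, and 288 of 458 with median scaling. In MREmx1-cre against GREmx1-cre they made up 1124 of 2134, and 1079 of 1700 with median scaling.

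Normexp fitted background means of -30.6, -804 and -107 on the GRMREmx1-cre arrays, against -0.331 to 2.42 on the others, and moved the all-gene median of GRMREmx1-cre against dflox from 0.03 to 0.42. It called 13, 105 and 14122 genes in GREmx1-cre, MREmx1-cre and GRMREmx1-cre against dflox, 14087 in GRMREmx1-cre and 173 in MREmx1-cre against GREmx1-cre, 13669 in GRMREmx1-cre against MREmx1-cre and 1 in the interaction, with 0, 0, 5, 5, 0, 4 and 0 members in that order. Signs it changed in GRMREmx1-cre were Htr1a (0.44 against dflox, 0.46 against GREmx1-cre, 0.64 against MREmx1-cre), Htr4 (1.55 against dflox, 1.37 against GREmx1-cre), Htr2c (0.085 against GREmx1-cre), Htr5a (1.03 against MREmx1-cre), Htr5b (0.0089 against dflox) and Tdo2 (0.48 and 0.53). Interactions of Htr1a (0.66), Htr5a (0.96) and Tph2 (0.98) and Htr5a in GREmx1-cre (0.065) changed sign too. The cause was not tested.

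Members called in GRMREmx1-cre against dflox fell from 2 to 1 with no filter, with the filter asking for all arrays of a group, and with only the groups compared. The stricter filter left Htr4 out, which gave 0 members in both comparisons with GREmx1-cre, and only the groups compared gave 0 for GRMREmx1-cre against MREmx1-cre. With the replicate block, Htr2a in GRMREmx1-cre was called (0.80, adjusted p = 0.029), Insm1 in MREmx1-cre and the Arrb1 interaction were not, and no other member's call changed. Same-numbered arrays correlated at -0.026 to 0.194. The block gave 929 genes in GREmx1-cre and 3833 in GRMREmx1-cre against dflox. Uncalled values crossing 0 were Htr2a in MREmx1-cre (-0.0081 with median, -0.12 with quantile scaling) and Htr7 in GRMREmx1-cre (-0.0084 with quantile).

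Without each array in turn, genes called ranged from 268 to 783, 1013 to 1591 and 2265 to 3897 in GREmx1-cre, MREmx1-cre and GRMREmx1-cre against dflox. They ranged from 2079 to 3789 and 1438 to 2139 in GRMREmx1-cre and MREmx1-cre against GREmx1-cre, 230 to 757 in GRMREmx1-cre against MREmx1-cre, and 83 to 434 in the interaction. Members called ranged from 1 to 1, 1 to 2, 1 to 3, 0 to 2, 1 to 2, 0 to 1 and 0 to 0 in that order. Uncalled differences crossed 0 for Htr1a in GREmx1-cre (-0.15 to 0.063), Htr2a in MREmx1-cre (-0.19 to 0.14), Htr7 in MREmx1-cre (-0.13 to 0.030 against dflox, -0.015 to 0.13 against GREmx1-cre) and Htr5a in GREmx1-cre (-0.19 to 0.34). In GRMREmx1-cre they did so for Htr2c (-0.18 to 0.033 against GREmx1-cre, -0.037 to 0.21 against MREmx1-cre) and Htr5a (-0.53 to 0.45 against MREmx1-cre), and in the interaction for Htr4 (-0.062 to 0.29) and Htr5a (-0.49 to 0.49). Signal near background limits Htr4 and Htr2a, and leaves Htr1b and Slc6a4 without a level.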
